A study of Mus musculus with 10 samples.

Results

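The genes described here are 29 genes of the contractile apparatus of smooth muscle and of its control, listed by name for their known roles. The list was drawn up with earlier results of these data known. The array carried a probe for 23 of them, 20 had at least 1 value, and 18 could be tested because at least 3 mouse pairs had both arrays filled, which held for 4299 genes in all. Myocd, Myl9, Synpo2, Cald1, Ppp1r14a and Pde5a had no probe assigned to them, the probes for Des, Vcl and Ppp1r12b were blank on every array, and Mylk and Aebp1 had values in too few pairs.

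The tissue was aortic arch. Double-null mice (ApoE-/-,MyD88-/-) lacked apolipoprotein E and MyD88, and the apoE-null mice (ApoE-/-) they were set against lacked the former alone. Both groups therefore carried the disrupted Apoe gene, which raises plasma cholesterol and leads to plaques, and they differed in Myd88, the adaptor of most Toll-like receptors and of the interleukin-1 receptor family. The labels of 8 of the 10 arrays state 8 weeks of high fat diet. The others, 1 array each of pairs 2 and 3, used mice whose second array states it. No label gives an age. An array compared 1 double-null with 1 apoE-null mouse, and there were 5 such mouse pairs with 2 arrays each, of opposite dye orientation, so n is at most 5 pairs. Both mice were female in pair 1 and male in pairs 2, 3 and 4, whereas in pair 5 the double-null mouse was male and its partner female. The deletion was present in every cell of the animal, so the aortic wall and its leukocytes both lacked MyD88. For pair 1 the labels of the 2 arrays give its mice exchanged genotypes; the genotype labels were followed. All values are log2 ratios of double-null over apoE-null, with the sign turned from the deposited direction, so that a negative value means less transcript in double-null aorta.

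Smooth muscle cells make up the media of the aorta. In their contractile state they hold thin filaments of smooth muscle actin and tropomyosin and thick filaments of smooth muscle myosin, and tension starts when myosin light chain kinase phosphorylates the regulatory light chain and ends when the myosin phosphatase removes the phosphate. Serum response factor with its coactivator myocardin drives many of these genes through a DNA element called the CArG box. In plaques smooth muscle cells can lose contractile transcripts, and the cells are then described as modulated or synthetic. The comparison therefore asks whether the contractile transcripts of the diseased vessel differ with the genotype.

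The CArG box is a sequence feature known for many, but not all, of these genes. The promoters of the RefSeq table (assembly GRCm38.p6) were searched for it in the 250 bases before and 50 bases after each start site. The motif is a pair of C, 6 bases that are each A or T, and a pair of G, and it reads as the same motif on both strands. Of the 29 genes 24 matched the table by symbol; Actg2, Csrp2, Myocd, Tagln and Myh11 did not. A full match stood in a window of 3 of the 24 genes (12.5%), against 1.81% of all 27025 genes in the table, and a match with at most 1 of the 6 inner bases being C or G stood in 4 (16.7%), against 11.3%. The matches stand in capitals with 10 bases on either side. Of these 4 genes Acta2 and Myl6 were measured, and their SDs between mouse pairs were 0.54 and 0.23. Among the 14 measured genes found in the table, 1 had a full match (7.14%). A match with at most 1 inner C or G stood in 2 of the 14 (14.3%), near the 11.3% of all genes.
Acta2, chr19:34255438-34255467, minus strand, 84 bases upstream, 1 inner base not A or T: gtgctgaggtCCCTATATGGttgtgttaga
Acta2, chr19:34255388-34255417, minus strand, 34 bases upstream, 1 inner base not A or T: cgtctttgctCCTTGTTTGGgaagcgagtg
Myl6, chr10:128493040-128493069, minus strand, 50 bases upstream, full match: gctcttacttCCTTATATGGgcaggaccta
Myl9, chr2:156775293-156775322, plus strand, 161 bases upstream, full match: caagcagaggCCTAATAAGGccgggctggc
Vcl, chr14:20929161-20929190, plus strand, 227 bases upstream, full match: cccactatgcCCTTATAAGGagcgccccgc
Each upstream distance is that of the first base of the motif from the start site in the table. Myl9 had another match with 1 inner base not A or T, 99 bases upstream. Myl6 has several start sites in the table, and its match lies before 1 of them. These letters are a description of the windows, and binding was not measured.

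The arrays gave between 4581 and 7057 values each for 13872 probes. The targeted gene Myd88 was negative on all 10 arrays and averaged -0.90 ± 0.22 on the log2 scale (SD over 5 pairs; limma gave an adjusted p of 0.0269). In pair 1, read by the genotype labels, Myd88 had -1.06 and was negative on both arrays. Of the 8 defining smooth muscle markers, Acta2, Myh11, Tagln, Cnn1, Smtn, Lmod1 and Actg2 were measured and Myocd was not. Ratios give no absolute level, so the abundance of these transcripts in the tissue cannot be stated.

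None of the 18 measured genes differed between the genotypes beyond the spread between mouse pairs. Their log2 ratios lay between -0.32 (Lmod1) and 0.25 (Tpm2). Of the 18, 12 were below 0 (66.7%) and 6 above, beside 58.3% below 0 among all genes tested. Their median was -0.15, beside -0.04 for all genes tested. Limma with Benjamini-Hochberg adjustment over all 4299 genes called 0 of the 18, against 0.814% of all genes, and their adjusted p-values lay between 0.536 and 0.990. At an unadjusted p under 0.05 the count was also 0 of 18, against 9.44% of all genes. A missed threshold does not show that the genotypes were alike, but the intervals bound the difference. The 95% intervals of all 18 genes included 0 and all stayed within 1 log2 unit of it. The lowest bound, for Lmod1, was -0.76, a 1.69-fold decrease, and the highest, for Tpm2, was 0.65, a 1.57-fold increase.

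The median depended on which pairs were read. Without pair 1, whose labels conflict, it was -0.0631 with 12 of 18 genes negative, and without pair 5 it was -0.0771 with 12 of 17 negative. Without pair 1 the log2 ratio of Acta2 was 0.0369, that of Flna -0.0960, that of Cnn1 -0.0985 and that of Csrp2 -0.11. Limma then called none of the 18 genes, and 6 of all 4024 genes tested. At an unadjusted p under 0.05 the count was 0 of 18, against 6.71% of all genes. Without pair 3, 14 of 17 genes had a negative ratio and the median moved to -0.31. Of these 17 genes 6 (Actg2, Cnn1, Csrp2, Lmod1, Rgs5 and Tpm1) had an unadjusted p under 0.05, against 12.2% of all genes. Pair 3 held the highest value of 14 of the 18 genes, so leaving it out lowers their means by construction. No conclusion is drawn from that count. After adjustment limma called 0 of all 4027 genes tested in this setting. The adjusted count of 0 therefore says nothing about the smooth muscle genes in particular. In the 3 male pairs alone 7 of 17 were negative and the median was 0.08. The unadjusted counts were 0 of 17 without pair 2 and 0 of 18 without pair 4, against 7.33% and 6.73% of all genes. Without pair 5 the unadjusted count was 2 of 17, against 10.7% of all genes.

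**Figure D1:**
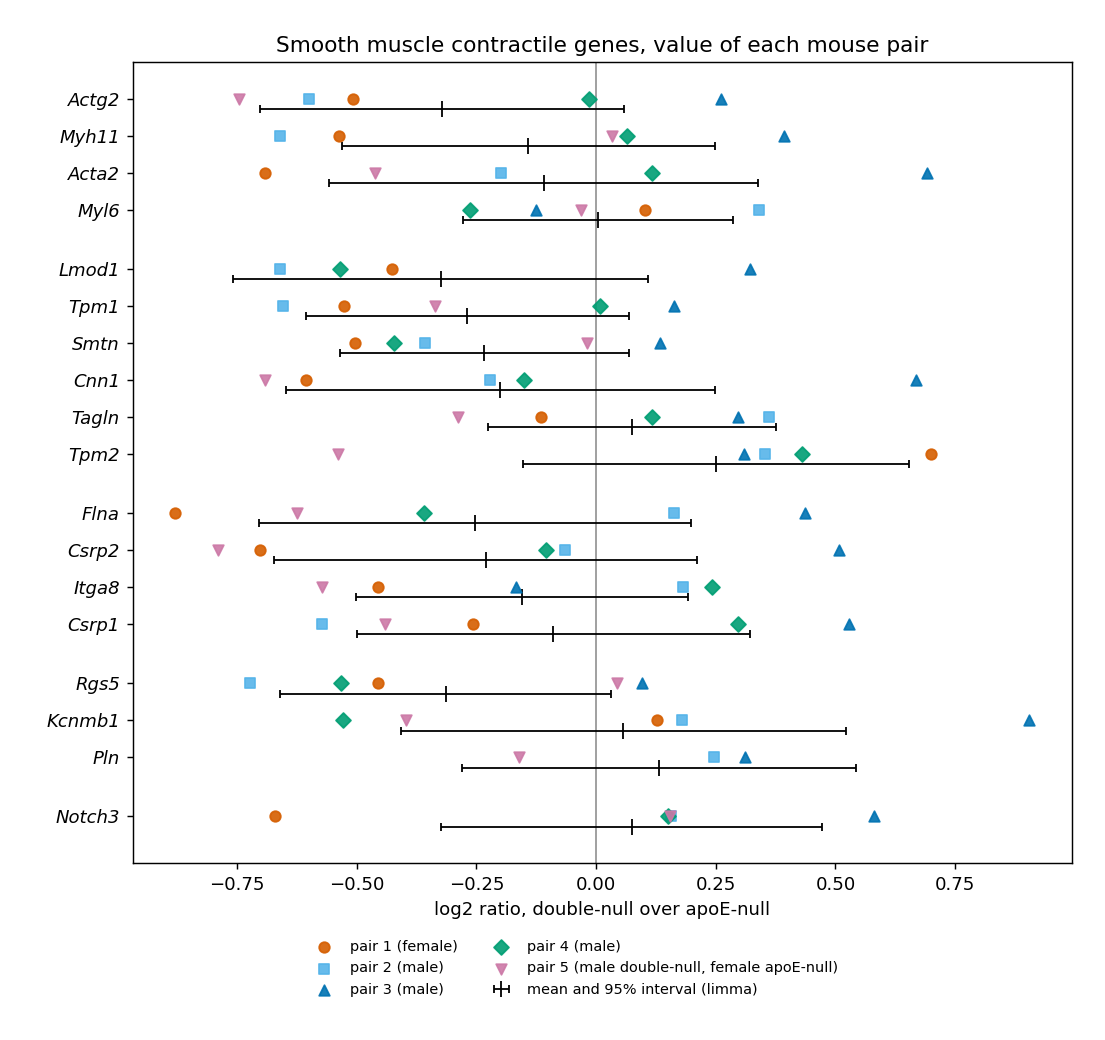
Log2 ratio (double-null over apoE-null, x axis) of the 18 measured smooth muscle genes in each mouse pair, grouped from top to bottom into contractile filament, thin filament, adhesion, signalling and identity genes; the black bar is the mean with its 95% interval from limma. All 18 intervals cross 0, and the triangle of pair 3 is the highest point for 14 genes.

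Among the filament proteins, Acta2, the smooth muscle alpha-actin and most abundant actin of the media, had log2 ratios of -0.69, -0.20, 0.69, 0.12 and -0.46 in pairs 1 to 5. It was lower in double-null aorta in pairs 1, 2 and 5 and higher in pairs 3 and 4, which gave a mean of -0.11 ± 0.54 (SD, n = 5 pairs, adjusted p = 0.852, limma). Actg2, the gamma-actin of visceral smooth muscle, had -0.51, -0.60, 0.26, -0.02 and -0.75. It was negative in 4 of 5 pairs, with a mean of -0.32 ± 0.43 (SD, n = 5 pairs, adjusted p = 0.560, limma) and an interval from -0.70 to 0.06. The 2 actins are close paralogs, so their separate values are uncertain. Myh11, the smooth muscle myosin heavy chain and the most specific marker of the lineage, had -0.54, -0.66, 0.39, 0.07 and 0.03, with a mean of -0.14 ± 0.44 (SD, n = 5 pairs, adjusted p = 0.763, limma). Its sign differed between the dye orientations, as described below. Myl6, the essential light chain, which many other cells also make, had 0.10, 0.34, -0.13, -0.26 and -0.03. Its SD of 0.23 was the smallest of the 18 genes, and its order of pairs was unlike that of the actins.

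Mylk, the kinase that starts contraction, had a value on both arrays of pair 1 only. On the arrays with double-null RNA in channel 1 it read -0.26, -0.50, 0.38, -0.11 and 0.10 in pairs 1 to 5, which again put pair 3 highest and pair 2 lowest, as for Myh11.

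Of 6 measured genes for proteins that bind and steady the thin filament, 4 had negative means, beside 58.3% of all genes tested. Cnn1, calponin, which slows the actomyosin ATPase, had -0.61, -0.22, 0.67, -0.15 and -0.69 in pairs 1 to 5. All pairs but pair 3 were below 0, and the mean was -0.20 ± 0.54 (SD, n = 5 pairs, adjusted p = 0.723, limma). Smtn, smoothelin, a marker of contractile cells, had -0.50, -0.36, 0.13, -0.42 and -0.02 over its 2 probes (mean -0.23 ± 0.28, SD, n = 5 pairs, adjusted p = 0.583, limma). The 2 probes had means of -0.35 and -0.11 and opposite signs in pair 5, at -0.23 and 0.19. Lmod1, leiomodin, which seeds new actin filaments, had -0.43, -0.66, 0.32 and -0.53 in pairs 1 to 4 and no value in pair 5. Its mean of -0.32 ± 0.44 (SD, n = 4 pairs, adjusted p = 0.590, limma) was the lowest of the 18, and only pair 3 was above 0. Tpm1, a tropomyosin that lies along actin, had -0.53, -0.65, 0.16, 0.01 and -0.34, above 0 in pairs 3 and 4 (mean -0.27 ± 0.35, SD, n = 5 pairs, adjusted p = 0.580, limma).

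Tpm2, the beta-tropomyosin, and Tagln had positive means. Tpm2 had 0.70, 0.35, 0.31, 0.43 and -0.54 in pairs 1 to 5, above 0 in every pair but the one of unlike sex, with a mean of 0.25 ± 0.47 (SD, n = 5 pairs, adjusted p = 0.639, limma). Pair 1, where most of the other genes were low, was its highest pair. Tagln, the actin-bundling transgelin, had -0.11, 0.36, 0.30, 0.12 and -0.29, with a mean of 0.07 ± 0.27 (SD, n = 5 pairs). The 2 arrays of a pair gave Tagln opposite signs in pairs 1, 4 and 5, so that its pair values average over large differences, such as 0.55 and -0.78 in pair 1.

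Of the adhesion and dense body genes, all 4 measured members had a negative mean, between -0.25 and -0.09. Flna, filamin, which crosslinks actin and ties it to integrins, had -0.88, 0.16, 0.44, -0.36 and -0.62 in pairs 1 to 5 and a mean of -0.25 ± 0.55 (SD, n = 5 pairs, adjusted p = 0.667, limma). Its value in pair 1 was the lowest pair value of any of the 18 genes. Csrp2, a LIM protein of smooth muscle, had -0.70, -0.07, 0.51, -0.10 and -0.79. Its relative Csrp1 had -0.26, -0.57, 0.53, 0.30 and -0.44 over 2 probes, whose pair values lay close together, at 0.55 and 0.51 in pair 3 for example. Itga8, the alpha8 integrin subunit of the media, had -0.46, 0.18, -0.17, 0.24 and -0.57, and it was the gene with the lowest value in pair 3.

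Genes that control tension were uneven. Kcnmb1, the beta1 subunit of the calcium-activated potassium channel that relaxes smooth muscle, had 0.13, 0.18, 0.90, -0.53 and -0.40 in pairs 1 to 5. It had both the highest pair value and the largest SD of the 18 genes (mean 0.06 ± 0.57, SD, n = 5 pairs, adjusted p = 0.930, limma). Rgs5, which dampens G protein signals and marks pericytes as well as arterial smooth muscle, had -0.45, -0.72, 0.10, -0.53 and 0.04. With a mean of -0.31 ± 0.36 (SD, n = 5 pairs, interval from -0.66 to 0.03) it had the smallest p of the 18, 0.0697 before adjustment and 0.536 after (limma). A second Rgs5 probe had a value on 1 array only, -1.40 in pair 3, which these values leave out. Where 1 array sufficed for a pair value the Rgs5 mean was -0.46. Pln, phospholamban, which restrains the calcium pump of the sarcoplasmic reticulum, had 0.25, 0.31 and -0.16 in pairs 2, 3 and 5.

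Among regulators of identity, Notch3, the Notch receptor of arterial smooth muscle, had -0.67 in pair 1, 0.58 in pair 3 and values from 0.15 to 0.16 in pairs 2, 4 and 5 (mean 0.07 ± 0.46, SD, n = 5 pairs, adjusted p = 0.890, limma). Aebp1, a secreted collagen-binding protein also made by fibroblasts, had values on both arrays of pair 3 (-0.87 and -0.0037) and of pair 4 (0.17 and 0.35) only.

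The mouse pairs differed from each other more than the 2 arrays of a pair did for many of these genes. In pair 3, 16 of 18 genes were above 0 with a median of 0.32, whereas in pairs 1 and 5 14 of 17 were below 0, with medians of -0.50 and -0.40. In pairs 2 and 4 the counts were near even, with 10 of 18 and 9 of 17 below 0 and medians of -0.13 and -0.02. The medians of all genes tested lay between -0.08 and -0.0033 in the same pairs. A limma F test over the 5 pairs at array level, with a dye term, called 8 of the 16 genes with values in all 5 pairs (Acta2, Actg2, Myh11, Cnn1, Csrp2, Flna, Kcnmb1 and Notch3), against 30.8% of all genes so tested. Cnn1 (F = 11.5, adjusted p = 0.00213) and Csrp2 (F = 9.02, adjusted p = 0.00533) had the smallest adjusted p-values, followed by Flna (0.00702), Kcnmb1 (0.0124) and Acta2 (0.0125). Tagln, Myl6, Smtn, Tpm1 and Itga8 had adjusted p-values of 0.115 or more in this F test, and those of Tpm2, Csrp1 and Rgs5 were 0.0505, 0.0505 and 0.0506. The same test called 51.7% of the other smooth muscle genes described below, so differing pairs were not particular to the contractile genes. It called 13 of 16 macrophage (81.25%), 5 of 6 striated muscle (83.3%) and 17 of 17 adipocyte markers (100%) with values in all 5 pairs. Of endothelial and fibroblast markers it called 2 of 10 (20%) and 2 of 11 (18.2%), few genes to set beside the 30.8% of all genes. The test sets pairs against the spread between arrays of the same RNA, so it describes these 5 pairs and not the genotypes, and it was chosen after the values had been seen. Without pair 1 or without pair 3 it called 5 of 16, against 14.7% and 31.2% of all genes. The SD between pairs exceeded the median of all genes, 0.30, for 14 of the 18. Within a pair, the part of either mouse in a ratio cannot be told apart.

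**Figure D2:**
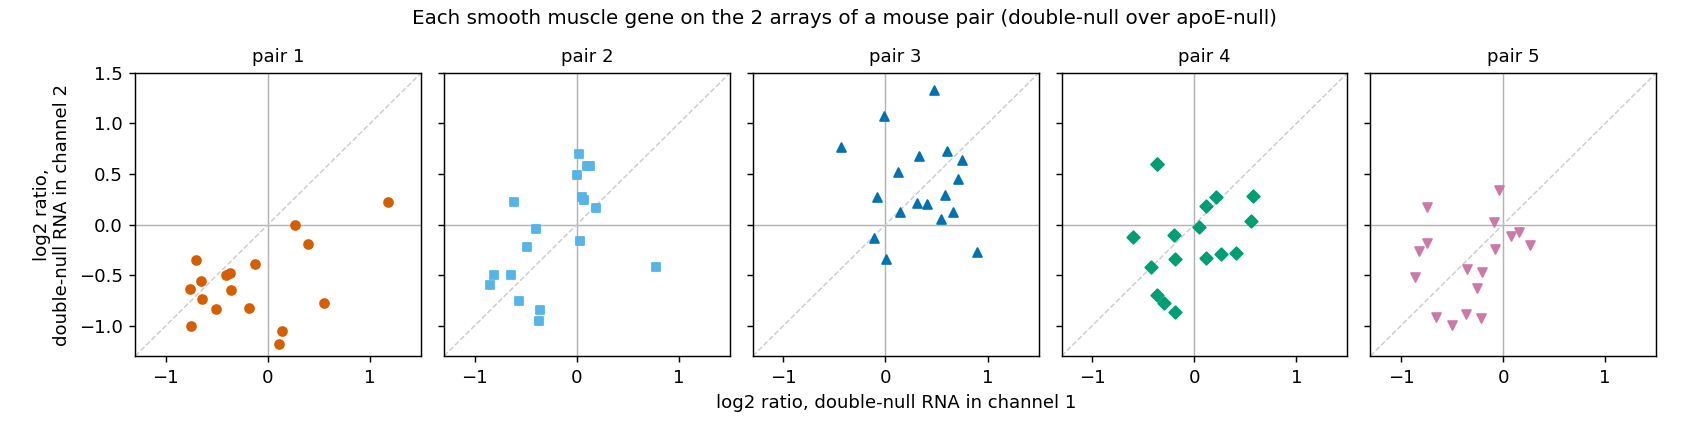
Log2 ratio of each measured smooth muscle gene on the array with double-null RNA in channel 1 (x axis) and in channel 2 (y axis), 1 panel per mouse pair; the dashed line marks equal values. Points of pair 3 lie mostly in the upper right and those of pairs 1 and 5 mostly in the lower left.

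The 2 arrays of a pair gave the same sign for 61 of 87 pair values. Between the orientations, 5 of the 18 genes had means of opposite sign. Myh11 was the 1 gene of the 18 with a dye effect in limma (adjusted p = 0.0302), against 4.84% of all genes. With channel 1 carrying the double-null RNA its mean was 0.21, with channel 2 carrying it -0.50, and the second was the lower in all 5 pairs. Without pair 1, 3 or 4 Myh11 was not called for dye, and without pair 4 Itga8 was called in its place. Itga8 had means of 0.18 and -0.49 (adjusted p = 0.0773, limma), and Acta2 went the other way with -0.33 and 0.11 (adjusted p = 0.221, limma). The sign of the means of Myh11, Itga8, Acta2, Myl6 and Pln thus depended on the orientation read. Rgs5, Smtn, Flna, Csrp2, Cnn1, Lmod1, Actg2, Tpm1 and Csrp1 were negative in both, and Tagln, Tpm2, Kcnmb1 and Notch3 were positive in both.

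**Figure D3:**
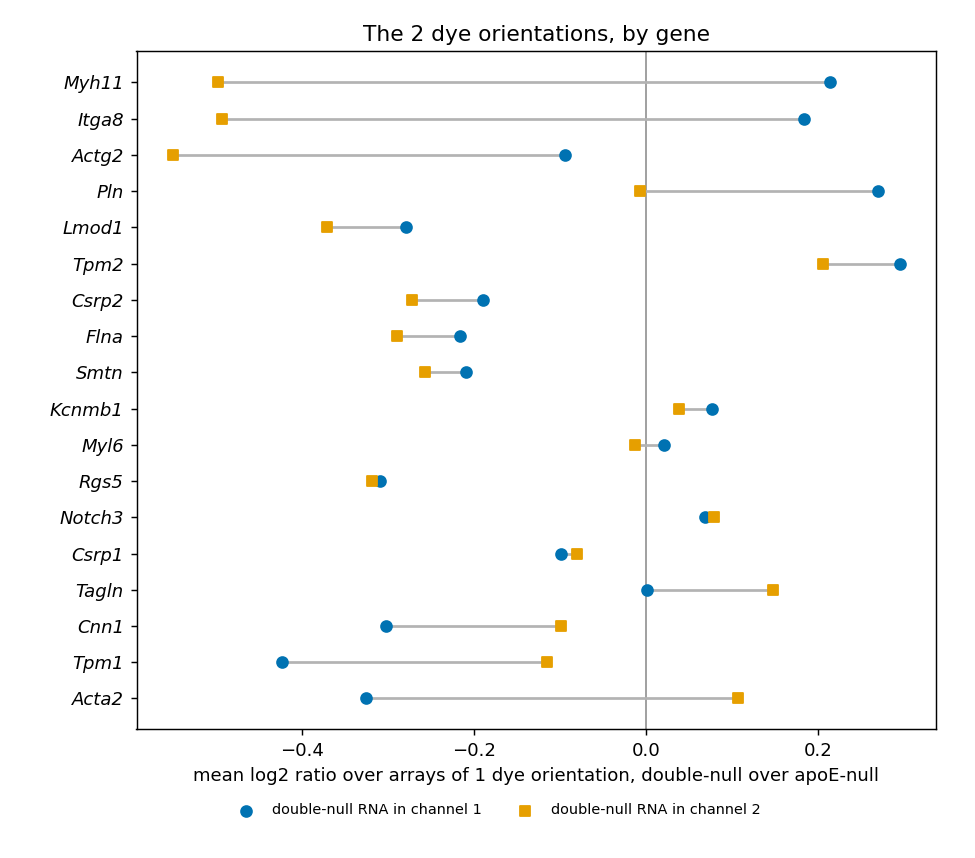
Mean log2 ratio (double-null over apoE-null, x axis) of each of the 18 smooth muscle genes over arrays with double-null RNA in channel 1 (circles) and in channel 2 (squares), over pairs with both arrays, sorted by the difference. Myh11 and Itga8 are above 0 in one orientation and below 0 in the other.

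Other genes of smooth muscle, 158 in 4 lists of which 71 were measured, also gave no call. Of these 71 genes 54 had negative ratios, with a median of -0.19, beside 58.3% negative among all genes tested, and limma called 0 of 71, beside 0.814% of all genes, with 4 of 71 at an unadjusted p under 0.05, beside 9.44% of all genes. Of 12 genes of contraction signalling 9 were negative, led by Mrvi1, the cGMP kinase substrate that limits calcium release (log2 -0.42 ± 0.57, SD, n = 4 pairs, adjusted p = 0.568, limma). Gna13, a G protein alpha subunit, and Gucy1a1, a subunit of the nitric oxide receptor, had -0.30 ± 0.42 (n = 5 pairs) and -0.24 ± 0.17 (n = 4 pairs). Of 32 actin and adhesion partners 23 were negative, and Actn1, alpha-actinin of dense bodies, was below 0 in all 5 pairs (log2 -0.57 ± 0.49, SD, n = 5 pairs, adjusted p = 0.329, limma). Palld and Actb, which scaffold and form cytoplasmic actin, had -0.48 ± 0.59 and -0.29 ± 0.27 (SD, n = 5 pairs). Of 12 SRF, Notch and TGF-beta regulators 10 were negative. Tcf21, a factor of adventitial progenitors, had -0.53 ± 0.41 (SD, n = 4 pairs) with a dye effect (adjusted p = 0.0305, limma). Smad7, the inhibitor of TGF-beta signalling, had -0.42 ± 0.44 and Pdgfrb, the growth factor receptor of mural cells, -0.31 ± 0.30 (SD, n = 5 pairs).

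Genes of modulated smooth muscle were also mostly negative. Of 15 measured, 12 were below 0 with a median of -0.21. The proteoglycan Lum was negative on all 10 arrays (log2 -0.69 ± 0.44, SD, n = 5 pairs, adjusted p = 0.172, limma). Tnfrsf11b, osteoprotegerin, had -0.33 ± 0.38 and Col1a1, a type I collagen chain, -0.34 ± 0.43 (SD, n = 5 pairs). The medians of this list in pairs 1 to 5 were -0.59, -0.14, 0.15, 0.04 and -0.20, beside -0.50, -0.13, 0.32, -0.02 and -0.40 for the contractile genes. The actin and adhesion partners had -0.44, -0.17, 0.21, 0.02 and -0.24, with pair 1 lowest and pair 3 highest. The SRF, Notch and TGF-beta regulators had -0.48, -0.11, 0.13, -0.08 and -0.14, again with pair 1 lowest and pair 3 highest. Contraction signalling had -0.16, -0.46, 0.06, -0.02 and -0.16, where pair 2 and not pair 1 was lowest. The lists come from the same arrays, so their likeness is no independent evidence.

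Markers of other cells moved between the pairs too, and their part in the values above was not tested. In whole tissue, fewer smooth muscle cells and less transcript per cell cannot be told apart. All 20 measured macrophage markers had negative means, with pair medians of -1.13, -0.45, -0.71, -0.69 and 0.27, and limma called 0 of the 20 (0.814% of all genes), with 13 at an unadjusted p under 0.05 (9.44% of all genes). The lysozymes Lyz2 and Lyz1, paralogs whose probes may share signal, had -0.81 ± 0.54 and -0.83 ± 0.60 (SD, n = 5 pairs), and the lectin Clec4n -0.89 ± 0.54 (SD, n = 4 pairs). Of 19 adipocyte markers 17 were positive, with medians of 2.12, -0.35, -0.55, 0.93 and -0.35 in pairs 1 to 5. Limma called 0 of the 19 (0.814% of all genes), with 0 at an unadjusted p under 0.05 (9.44% of all genes). Adipoq, the adipokine, read 2.40 in pair 1 and Scd1, the stearoyl desaturase, 2.46, whereas Lpl, which macrophages also make, had a mean of -0.42 ± 0.58 (SD, n = 5 pairs). Pair 3, in which the contractile genes were highest, had the lowest adipocyte median, and pair 1, in which they were lowest, had the highest. Pair 5 had low medians in both lists.

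Striated muscle shares Pln and the tropomyosins with smooth muscle. Of 11 measured striated muscle markers 7 were positive, with medians of -0.54, 1.07, -0.17, 0.05 and -0.28 in pairs 1 to 5, so that pair 2 stood highest there and not pair 3. Actc1, the cardiac actin, had -0.45 ± 0.33 (SD, n = 4 pairs), Ryr2, the cardiac calcium release channel, -0.21 ± 0.23 and Cox8b, a cytochrome oxidase subunit also found in brown fat, 0.78 ± 1.24 (SD, n = 5 pairs). Endothelial and fibroblast markers were steadier. Their pair medians lay between -0.00062 and 0.15 for 13 endothelial genes, among them Cldn5 at 0.28 ± 0.22, Sox17 at 0.28 ± 0.27 and Ptprb at -0.24 ± 0.40 (SD, n = 5 pairs). They lay between -0.25 and 0.23 for 11 fibroblast genes, among them Dpt at -0.30 ± 0.29, Gsn at 0.22 ± 0.32 and Fbln2 at 0.15 ± 0.15 (SD, n = 5 pairs). Limma called none of the genes in these lists (0 of 11, 0 of 13 and 0 of 11), beside 0.814% of all genes. At an unadjusted p under 0.05 the counts were 1 of 11 (Actc1), 0 of 13 and 0 of 11, beside 9.44% of all genes.

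**Figure D4:**
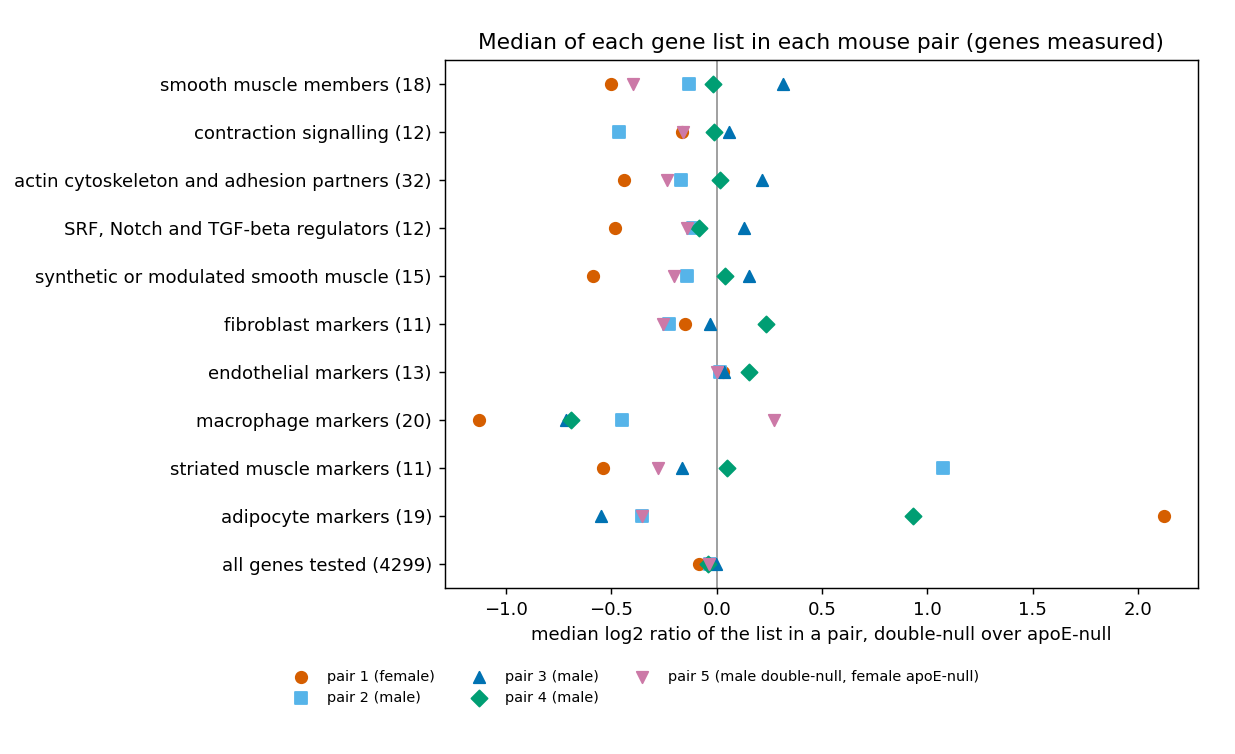
Median log2 ratio (double-null over apoE-null, x axis) of each gene list in each mouse pair, with the number of measured genes in brackets. The smooth muscle genes span -0.50 to 0.32, the adipocyte markers -0.55 to 2.12, and all genes tested stay between -0.08 and -0.0033.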

How the data were processed

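The authors deposited 1 log2 ratio per probe and array, with apoE-null over double-null as the direction in the titles; the sign was turned here. Base 2 was inferred from the lowest value, -6.64, which 10 cells hold, none of them for the smooth muscle genes. Per the labels, aortic arch RNA was amplified with T7 polymerase, labelled chemically, scanned and quantified with GenePix instruments and software, and analysed in GeneSpring. The sources used here do not say how ratios were normalized or why 49.1% to 67.0% of cells per array are blank. Array medians lay between -0.09 and 0.01. Blank cells and the number of arrays limit the precision.

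Probes were named by GEO's platform table and renamed through their Entrez number in RefSeq (GRCm38.p6): of 12143 probes with 1 symbol, 12009 matched and 134 kept the older name. Both arrays of 1 mouse pair share their extracts and were averaged to 1 value where both had one, then the probes of a gene were averaged. Pairing comes from the mouse numbers in the labels. Genes with 3 or more pair values were tested against 0 in limma 3.58.1 under R 4.3.3 (lmFit and eBayes, two-sided), called at 0.05 after Benjamini-Hochberg adjustment. These p-values rest on the spread between mouse pairs. The dye effect was tested likewise on the difference between orientations divided by 2. The F test over pairs used arrays of genes with values in all 5 pairs, and its p-values rest on the spread between arrays of the same extracts. The code was tested on simulated data.

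The genes and lists were chosen with earlier results of these data known. All 29 genes are named, with up to 3 genes of smallest p per other list. Alternatives were leaving out pairs, array-level fits, single orientations, centring, scaling, filters, empirical Bayes settings and the choice of probe.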

Additional observations from a re-analysis of the deposited data

Results flagged for a closer look

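The difference of Myh11 between dye orientations was -0.71 on the log2 scale (channel 2 minus channel 1, adjusted p = 0.0302, limma). It was singled out because the same comparison of genotypes gave different values in the 2 orientations. Myh11 was the 1 gene of the 18 called for dye, beside 4.84% of all genes, so this call does not set the smooth muscle genes apart. Without pair 1, without pair 3 or without pair 4 Myh11 was not called for dye. The median of the endothelial markers in pair 4 was 0.15, far from the nearest other pair at 0.03. It was 1 of 31 groups of 4 or 5 pair values looked at, and chance flags about 1 in 20.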

How the results depend on the processing

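Limma called 0 of the smooth muscle genes under every alternative, but without pair 3 or without pair 4 it called 0 of all genes. Of 318 gene values under an alternative 299 kept their direction. Many of these could not turn. The array-level fits, the empirical Bayes setting, the filters on the number of pairs and the removal of the lowest value left each log2 ratio unchanged. With the pair as a random replicate block in an array-level fit the median of the smooth muscle genes was -0.15 and the count of all genes called went from 35 to 57; with no replicate block it was 122, and 1 related gene (Lum) was called. It was 98 with double-null RNA in channel 2 only, 7 where 1 array sufficed for a pair value, and 0 to 17 leaving out 1 pair. In the male pairs alone the log2 ratio turned for Acta2 (0.20), Cnn1 (0.10), Myl6 (-0.0162), Itga8 (0.0852), Flna (0.0803), Csrp1 (0.0838) and Csrp2 (0.11). In channel 1 alone it turned for Myh11 (0.21) and Itga8 (0.18), in channel 2 alone for Acta2 (0.11), Myl6 (-0.0121) and Pln (-0.00668), and after scaling for Myl6 (-0.0221). Leaving out 1 pair gave -0.31 to 0.0369 for Acta2, -0.0796 to 0.0714 for Myl6, -0.24 to 0.0317 for Csrp1, -0.15 to 0.20 for Kcnmb1 and -0.0522 to 0.26 for Notch3. It gave 0 to 1 smooth muscle genes with a dye effect and 5 to 9 whose pairs differed. The F test over pairs and its alternatives were chosen after seeing the data. The cause of these moves was not tested.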
